A study of Mus musculus with 109 samples.

Results

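The genes of the necroptosis and caspase-8 machinery, Ripk1, Ripk3, Mlkl, Casp8, Fadd, Cflar and Cyld, were followed through RNA sequencing of whole mouse retinas after intravitreal injection of IL1A, TNF or both. They were taken by name, and all 7 had a row among the 37315 genes counted. The series held 109 retinas of 64 mice. WT (C57BL/6J) eyes in batch 1 received PBS, TNF, IL1A or IL1A+TNF and were collected at day 2, with 31, 8, 9 and 10 retinas in that order. WT eyes given PBS or TNF were also collected at day 14, with 7 and 6 retinas, and at day 35, with 6 and 9 retinas. Batch 2 held WT eyes at day 2 after PBS or IL1A+TNF, with 5 and 6 retinas, and Sarm1-/- eyes under the same treatments, with 6 retinas each. SARM1 is an NAD-cleaving enzyme that drives axon degeneration, and these mice lack it in every cell. All mice were adults of 2 to 4 months, both sexes were present in every group, and the eyes of 45 mice were both sequenced, so that many PBS eyes were fellow eyes of treated ones. No uninjected retina was analysed here, so PBS stands for an injected eye.

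RIPK1 is a kinase and a scaffold that joins the receptor complex formed when TNF binds its receptor TNFR1. Removal of ubiquitin chains from RIPK1, to which the deubiquitinase CYLD contributes, lets it assemble with the adaptor FADD and the protease caspase-8. Active caspase-8 starts apoptosis and cleaves RIPK1 and RIPK3, and cFLIP, the product of Cflar, pairs with caspase-8 and tunes this activity. Where caspase-8 is held inactive, RIPK1 can engage RIPK3, which phosphorylates MLKL, and MLKL then breaches the plasma membrane, a lytic death called necroptosis. In the retina this route is known above all from photoreceptor and ganglion cell injury models. A transcript level gives the amount of message in the tissue and not the activity of a kinase or protease.

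The genes lie on 5 chromosomes of the mouse build GRCm38. Ripk1 spans 13:34002363-34037147 on the plus strand, Ripk3 spans 14:55784995-55788865 on the minus strand, Mlkl spans 8:111311797-111338177 on the minus strand and Casp8 spans 1:58795374-58847503 on the plus strand. Fadd spans 7:144577318-144582463 on the minus strand, Cflar spans 1:58711508-58758884 on the plus strand, beside Casp8, and Cyld spans 8:88697028-88751945 on the plus strand. In the annotation, 241 exonic bases of Ripk1 are shared with Serpinb6a on the other strand and 511 with the pseudogene Gm17084 on the same strand, and 239 of Fadd are shared with the antisense gene Faddos. Counts of Ripk1 and Fadd are uncertain by that much, since the strand setting of the counting was not given in the sources used here.

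Because 4 of the genes moved most with treatment, the 60 bases before a RefSeq transcription start of each are shown (build GRCm38.p6, read on the strand of the gene). For Ripk1 this is the start whose window held a motif. Capitals mark a match to a gamma-activated site (TTCNNNGAA), the element bound by STAT factors.
Ripk1, chr13:34002814-34002873: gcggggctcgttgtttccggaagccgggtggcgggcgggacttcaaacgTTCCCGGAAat
Ripk3, chr14:55788858-55788917: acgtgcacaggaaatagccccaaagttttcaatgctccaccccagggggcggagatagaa
Mlkl, chr8:111338206-111338265: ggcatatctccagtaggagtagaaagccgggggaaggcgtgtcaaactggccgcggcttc
Casp8, chr1:58802442-58802501: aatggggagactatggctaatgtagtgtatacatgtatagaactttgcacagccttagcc
A set of 5 motifs was searched on both strands in the 250 bases before each start. These were an interferon-stimulated response element core (GAAA, any 2 bases, GAAA), the gamma-activated site, an NF-kB site (GGG, any 3 bases, TTCC), an AP-1 site (TGANTCA) and a PU.1 site (GAGGAAGT). They occurred in 2.98%, 7.02%, 4.65%, 6.75% and 2.44% of 32851 windows of that length. The window before one of the annotated Ripk1 starts held the gamma-activated site at 2 positions, 108 to 100 and 11 to 3 bases before the start. That window lies inside the annotated gene, as does the Casp8 window. The window before the other Ripk1 start, 13:34002113-34002362, lies just outside the annotated gene and held none of the 5 motifs. The Cyld window held the NF-kB motif once, on the other strand, 155 to 146 bases before the start. The windows of Ripk3, Mlkl, Casp8, Fadd and Cflar held none of these letters, which says nothing on the factors themselves.

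In PBS retinas at day 2 the inhibitory and ubiquitin-editing members were the more abundant messages and the executioners of necroptosis the scarcest. Levels are given as CPM, the count of a gene divided by the total of its retina, with totals scaled between retinas by the trimmed mean of M values (TMM). Divided by exonic length, the mean level was 9.15 ± 0.534 CPM per kb for Cyld and 5.16 ± 0.494 for Cflar (SD, n = 31). Fadd stood at 1.66 ± 0.193, Ripk1 at 1.4 ± 0.233 and Casp8 at 1.12 ± 0.307 CPM per kb on the same scale. Mlkl followed at 0.229 ± 0.1 and Ripk3 at 0.166 ± 0.101 CPM per kb. The ranges of mean ± SD overlapped for Fadd with Ripk1, for Ripk1 with Casp8 and for Mlkl with Ripk3, and for no other neighbours in this order. Ripk3 and Mlkl rested on few reads, from 4 to 43 and from 7 to 42 counts per PBS retina at day 2.

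The first comparison asked what each cytokine, and the pair, did to these messages by day 2. TNF alone moved none of the genes past the test, IL1A raised Ripk3, Mlkl and Casp8, and IL1A+TNF raised these and Ripk1, with small rises of Fadd and Cflar. All 3 treatments were set against the same 31 PBS retinas, so their values are not independent of each other. A gene was called where its limma adjusted p, taken over all genes tested, was under 0.05. After TNF, 0 of the 7 genes were called, beside 0.491% of all 19548 genes tested. At an unadjusted p under 0.05 limma gave 0 of the 7 as well, and edgeR and DESeq2 gave 1 each and called none. After IL1A, 3 genes were called, all higher, beside 21.4% of all genes called and 12% called higher. After IL1A+TNF, 6 were called, all higher, beside 50.5% of all genes called, 25% higher and 25.5% lower. The median log2 change of the 7 genes was 0.98 after IL1A+TNF, against -0.02 over all genes.

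**Figure D1:**
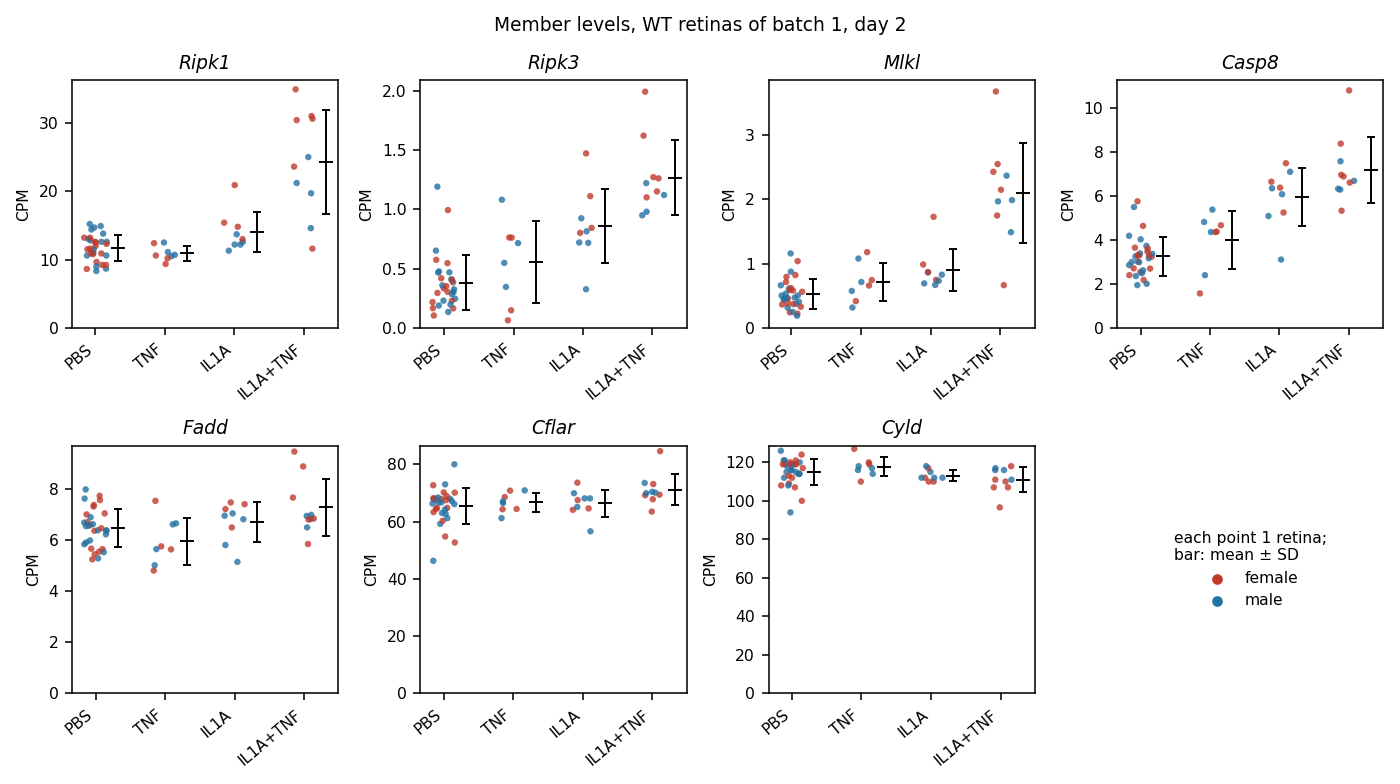
Level of each gene in CPM (vertical axis, from 0) in every WT batch 1 retina at day 2 after PBS, TNF, IL1A or IL1A+TNF. Each point is a retina coloured by sex, and the bars give mean ± SD. IL1A+TNF retinas lie above most PBS retinas for Ripk1, Mlkl and Casp8, while Cflar and Cyld overlap throughout.

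Ripk1, the kinase shared by the apoptotic and necroptotic complexes, ran from 8.33 CPM through a median of 11.6 to 15.2 CPM in the 31 PBS retinas. After TNF it ran from 9.36 through 10.6 to 12.5 CPM, and after IL1A from 11.3 through 13 to 20.9 CPM. After IL1A+TNF it ran from 11.6 through 24.3 to 34.9 CPM. The retinas given both cytokines thus spread over a wide range, and 8 of 10 stood above the highest PBS retina, whereas none given TNF did. The level after IL1A+TNF was 1.98-fold that after PBS (log2 0.98 ± 0.10 SE, adjusted p = 4.6e-12). After TNF the log2 difference was -0.078 (95% interval -0.36 to 0.20), and after IL1A it was 0.27 (0.026 to 0.52, adjusted p = 0.11).

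Ripk3, the kinase that phosphorylates MLKL, ran from 0.105 through 0.334 to 1.19 CPM after PBS. It ran from 0.326 through 0.814 to 1.47 CPM after IL1A and from 0.949 through 1.18 to 1.99 CPM after IL1A+TNF. Of the retinas given both, 5 of 10 exceeded the highest PBS retina, and only 2 PBS retinas reached the lowest of them. Ripk3 was 2.36-fold higher after IL1A (log2 1.24 ± 0.24 SE, adjusted p = 7.9e-05) and 3.56-fold higher after IL1A+TNF (log2 1.83 ± 0.21 SE, adjusted p = 6.5e-11). With mouse as a fixed block, the IL1A call of Ripk3 was lost (log2 0.86, adjusted p = 0.13) and that after IL1A+TNF held.

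Mlkl, the pore-forming executioner, ran from 0.19 through 0.472 to 1.16 CPM after PBS, from 0.67 through 0.829 to 1.73 CPM after IL1A, and from 0.666 through 2.07 to 3.68 CPM after IL1A+TNF. With both cytokines 9 of 10 retinas stood above every PBS retina, against 1 of 9 with IL1A. The change was 1.79-fold after IL1A (log2 0.84 ± 0.23 SE, adjusted p = 0.0046) and 3.9-fold after IL1A+TNF (log2 1.96 ± 0.18 SE, adjusted p = 7.2e-14), the largest fold of the 7 genes in that comparison. The IL1A call of Mlkl was lost with mouse as a fixed block (log2 0.88, adjusted p = 0.11).

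Casp8, the initiator protease that restrains necroptosis, ran from 1.95 through 3.24 to 5.76 CPM after PBS, from 3.11 through 6.35 to 7.49 CPM after IL1A, and from 5.33 through 6.79 to 10.8 CPM after IL1A+TNF. In contrast to Ripk1 and Mlkl, most of its estimated rise was already present with IL1A alone, a difference between genes that was not tested. After IL1A, 6 of 9 retinas passed the highest PBS retina. Casp8 was 1.85-fold higher after IL1A (log2 0.89 ± 0.13 SE, adjusted p = 3.5e-07) and 2.22-fold higher after IL1A+TNF (log2 1.15 ± 0.12 SE, adjusted p = 3.5e-12). After TNF alone, the 3 genes Ripk3, Mlkl and Casp8 had log2 differences of 0.41, 0.47 and 0.27, with intervals that included 0 (-0.20 to 1.03, -0.062 to 1.00 and -0.051 to 0.59).

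Fadd, Cflar and Cyld moved little. Fadd was 1.12-fold higher after IL1A+TNF (log2 0.16 ± 0.063 SE, adjusted p = 0.031), with 2 of 10 retinas above the highest PBS retina. Cflar was 1.09-fold higher (log2 0.13 ± 0.045 SE, adjusted p = 0.014), with 1 of 10. Both calls were lost when single retinas were left out. That of Fadd was lost without replicate 1, 2 or 5 (adjusted p = 0.096, 0.11 and 0.051) and that of Cflar without replicate 2 (adjusted p = 0.06), and that of Fadd also with mouse as a fixed block (adjusted p = 0.15). The log2 difference of Cyld was -0.049 (95% interval -0.11 to 0.0085, adjusted p = 0.15). In the 8 mice with one eye given PBS and the other IL1A+TNF, the treated eye was the higher in 8 of 8 for Ripk1, Ripk3, Mlkl, Casp8 and Cflar, in 7 of 8 for Fadd and in 2 of 8 for Cyld.

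**Figure D2:**
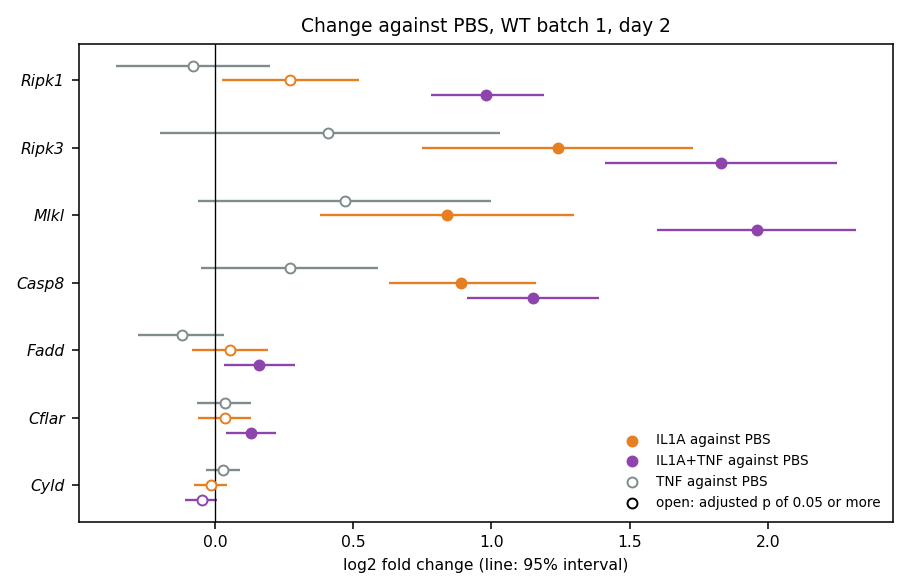
Log2 fold change against PBS at day 2 (horizontal axis) for each gene after TNF, IL1A and IL1A+TNF, with 95% intervals. Filled points passed the test across all genes. All TNF intervals include 0, and within each of Ripk1 (0.98), Ripk3 (1.83), Mlkl (1.96) and Casp8 (1.15) the IL1A+TNF point lies farthest to the right.

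The next comparison asked, gene by gene, what TNF added to IL1A, and differences between the genes were not tested. IL1A+TNF was called higher than IL1A alone for 2 of the 7, beside 10.2% of all genes called. Ripk1 was 1.64-fold higher (log2 0.71 ± 0.14 SE, adjusted p = 2.9e-04) and Mlkl 2.17-fold higher (log2 1.12 ± 0.23 SE, adjusted p = 7.2e-04). For Ripk3 the log2 difference was 0.59 (95% interval 0.098 to 1.09, adjusted p = 0.11) and for Casp8 it was 0.26 (-0.032 to 0.55, adjusted p = 0.27). Against TNF alone, IL1A+TNF was higher for 5 of the 7, all but Cflar and Cyld, beside 39.1% of all genes called. The interaction term, which tests whether the change with both cytokines exceeded the sum of their single changes on the log2 scale, was called for Ripk1 alone of the 7, beside 3.52% of all genes. Its value was 0.79 ± 0.20 SE (adjusted p = 0.015), and it passed under each of the 6 alternatives run for it (adjusted p from 1.8e-04 to 0.019). For Mlkl the term was 0.65 (95% interval -0.047 to 1.35, adjusted p = 0.32), for Ripk3 0.18 (-0.61 to 0.97) and for Casp8 -0.011 (-0.44 to 0.42).

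The upstream and parallel parts of the pathway were counted from lists by role, each in the same IL1A+TNF comparison with PBS at day 2. Their counts stand beside the 25% of all genes called higher and 25.5% called lower in that comparison, and differences between lists were not tested. For each list the first genes in list order are named, and those of larger change named after their values were seen are marked as such. Of the receptor complex, 4 of 6 genes were higher and 1 was lower. Tnfrsf1a, which encodes TNFR1, rose 1.88-fold (log2 0.91 ± 0.11 SE, adjusted p = 3.8e-10). Tradd and Traf2, adaptors of the complex, rose 1.35-fold and 1.17-fold, while Birc2, a ubiquitin ligase for RIPK1, had a log2 difference of 0.0033 (95% interval -0.045 to 0.052). Its relative Birc3, named after its value was seen, rose by 1.77 on the log2 scale (adjusted p = 1.7e-11). Of the linear ubiquitin ligase and deubiquitinases, 5 of 7 were higher and 1 was lower. Rnf31, the catalytic subunit of that ligase, rose 1.55-fold, and its subunit Rbck1 and the deubiquitinase Otulin rose 1.15-fold and 1.08-fold. The third subunit, Sharpin, had a log2 difference of 0.042 (adjusted p = 0.35). The lower gene, also named after its value was seen, was Tnfaip3, which encodes the ubiquitin-editing enzyme A20 and fell by 1.2 on the log2 scale (adjusted p = 3.8e-16), the largest change in that list. The list of kinases that phosphorylate RIPK1 also held regulatory partners of these kinases, which are not kinases themselves. Of its 10 genes, 4 were higher and 2 were lower, a share of the mixed list near that of all genes. Neither lower gene encodes a kinase, nor does every higher one. Ikbkg, the regulatory subunit of the IKK complex, fell by 0.14 on the log2 scale (adjusted p = 4.5e-05). Map3k7, which encodes TAK1, and the IKK kinases Ikbkb and Chuk were not called, with log2 differences of 0.0018, 0.052 and -0.073. Ikbke, an IKK-related kinase named after its value was seen, rose by 2.23 on the log2 scale (adjusted p = 1.6e-13).

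Parallel routes into RIPK3 and caspase-8 were counted in the same way. All 5 tested genes for other RHIM proteins (those with the motif through which RIPK1 and RIPK3 bind) and nucleic acid or lipopolysaccharide sensors were higher. Zbp1, a nucleic acid sensor that engages RIPK3, rose 3.24-fold (log2 1.70 ± 0.18 SE, adjusted p = 7.7e-12), with a median of 1.07 CPM after PBS and 3.99 CPM after IL1A+TNF. Tlr4 rose 3-fold, Tlr3 1.57-fold and Ticam1, the adaptor of both receptors, 1.28-fold. Of the death ligands and receptors, 2 of 4 tested were higher and Fasl did not pass the filter on low counts. Tnf itself rose 4.99-fold from a median of 0.131 CPM (log2 2.32 ± 0.23 SE, adjusted p = 8.4e-13), and the death receptor Fas rose 1.89-fold. The ligand gene Tnfsf10 and its receptor gene Tnfrsf10b were not called, with log2 differences of -0.037 (95% interval -0.43 to 0.35) and 0.14 (-0.049 to 0.34). Of the caspases and the mitochondrial arm, 5 of the 9 genes reported were higher and 1 was lower. Casp6 rose 1.26-fold and Bid, a substrate of caspase-8, rose 1.49-fold. Of the necrosome regulators and membrane repair genes, 3 of 9 were higher and 2 were lower, again near the share of all genes. Ppm1b, a phosphatase that acts on RIPK3, fell by 0.21 on the log2 scale (adjusted p = 7.7e-09), and the ubiquitin ligase gene Peli1 rose by 0.06 (adjusted p = 0.047). The chaperone-linked Stub1 and Cdc37 were not called, with log2 differences of -0.012 and 0.08. TNF alone called 0 genes in each of these lists, beside 0.491% of all genes.

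**Figure D3:**
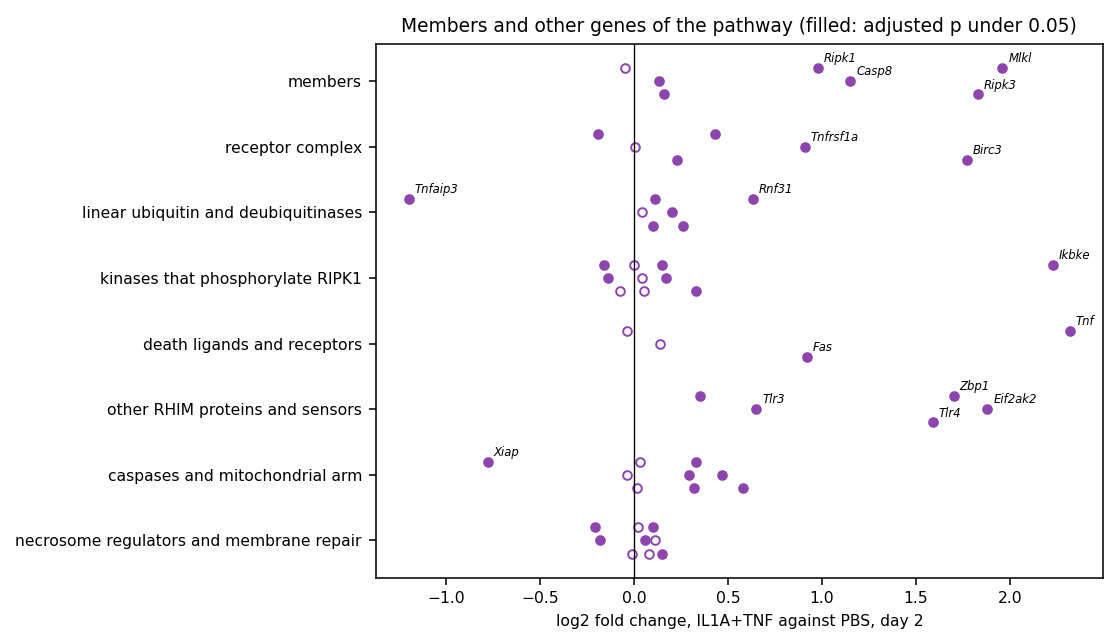
Log2 fold change of IL1A+TNF against PBS at day 2 (horizontal axis) for the members and the other genes of the role lists, 1 point per gene, grouped by list. Filled points passed the test across all genes. The other RHIM proteins and sensors all lie to the right of 0, with Zbp1 at 1.70.

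Markers of other cell types also differed between the groups. The summed level of 9 neutrophil markers ran from 2.9 through a median of 15.9 to 130 CPM after PBS, from 3.21 through 21 to 49.1 after TNF, from 63.6 through 154 to 349 after IL1A and from 119 through 183 to 751 after IL1A+TNF, with Ly6g, the defining surface marker, at a median of 0. The 8 monocyte and macrophage markers had median sums of 73.1, 212, 231 and 391 CPM in that order, the 8 microglial markers of 89, 128, 151 and 150 CPM, and the 6 endothelial markers of 298, 332, 410 and 442 CPM. After IL1A+TNF, 6 of 8 tested neutrophil, 6 of 8 monocyte and 6 of 6 endothelial genes were higher, and of the 8 microglial genes 5 were higher and 2 lower, beside 25% of all genes higher. After TNF, where no member was called, 2 of the 8 microglial genes were higher and 0 of the neutrophil, monocyte and endothelial genes were called. The labelled tissue was reflected in its neural markers, whose median sums after PBS and IL1A+TNF were 44335 and 24601 CPM for 6 rod genes and 702 and 569 CPM for 8 retinal ganglion cell genes. The part of any of these cells in the levels of Ripk3, Mlkl and Casp8 was not tested, and in whole tissue a change in the number of cells of a type cannot be told apart from a change in RNA per cell.

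The genes whose levels ran most nearly with each member over the 58 day 2 retinas of batch 1 were read from 15123 genes by Pearson's r of log2 CPM, as a description of retinas that share treatments. They were Ptpn1 (0.95) and Etv6 (0.94) for Ripk1, Birc3 (0.88) and Rab32 (0.87) for Ripk3, Zc3hav1 and Shisa5 (both 0.90) for Mlkl, and Dab2 (0.97) and Tnfrsf1b (0.95) for Casp8. For the flat members the values were lower. They were Srd5a3 (0.64) and Igfbp6 (0.63) for Fadd, Lrrc58 (0.73) and Stt3a (0.72) for Cflar, and Rnf152 (0.84) and Akap11 (0.83) for Cyld. Among the members, r was 0.86 for Ripk3 with Casp8 and stayed at 0.64 within the 31 PBS retinas. For Ripk1 with Mlkl it was 0.72 over all retinas and -0.04 within the PBS retinas.

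The later time points asked whether TNF alone acted on these genes with delay. No delayed effect was called among the members that could be tested, which does not show that there was none. At day 14 and at day 35, 0 of 5 tested members were called, beside 0% of all genes at either time. For all genes, 791 and 887 had an unadjusted p under 0.05 at these times, and edgeR and DESeq2 also called 0. With mouse as a fixed block, these were 2263 and 768 genes. That fit called 0 genes at day 14 and 5 at day 35, none of them a tested member. Ripk3 and Mlkl did not pass the filter, with at most 8 and 20 counts in a TNF retina at day 14. For Ripk1 the log2 difference was 0.14 at day 14 (95% interval -0.019 to 0.29) and 0.056 at day 35 (-0.083 to 0.20), and for Casp8 it was 0.24 (-0.15 to 0.63) and 0.16 (-0.15 to 0.48). The change of the TNF effect from day 2 to day 14 or to day 35 was called for 0 of 7 genes, beside 0% of all genes for both. Here 821 and 562 genes had an unadjusted p under 0.05, edgeR called 0 and 0, and DESeq2 called 2 and 0. Ripk3 and Mlkl passed the filter of this fit only through the day 2 retinas. Their terms had SE from 0.47 to 0.74 on the log2 scale, so the lack of a call says little for them.

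The PBS retinas themselves differed by day. Across days 2, 14 and 35, 6 of the 7 genes were called by the moderated F test over the 3 days, beside 35.9% of all genes. The 7 retinas of day 14 came from 6 mice, and the test counted both PBS eyes of 1 mouse as separate. Ripk3 had medians of 0.334, 0.126 and 0.0588 CPM at these days, Mlkl 0.472, 0.133 and 0.0865 CPM, Casp8 3.24, 1.61 and 1.02 CPM, and Ripk1 11.6, 7.64 and 6.87 CPM. The medians of these 4 genes were thus lower at each later day. Ripk3 and Mlkl passed the count filter of this test only through the day 2 retinas, where they were high. In PBS retinas they had 1 to 7 and 4 to 13 counts at day 14, and 1 to 4 and 1 to 8 at day 35. Their folds and calls across days thus rest on few reads and are given as a description. Day 2 stood above day 35 by 4.71-fold for Ripk3, 4.82-fold for Mlkl, 3.1-fold for Casp8, 1.67-fold for Ripk1 and 1.26-fold for Fadd, and Cyld was higher at days 14 and 35 by 0.10 and 0.13 on the log2 scale. The adjusted p of the joint test, which does not test single pairs of days, was 1.0e-04 for Ripk3, 1.2e-05 for Mlkl, 1.1e-07 for Casp8, 1.9e-07 for Ripk1, 8.9e-04 for Fadd and 0.0043 for Cyld. Cflar was not called (adjusted p = 0.29). In the same retinas the median sum of neutrophil markers went from 15.9 to 1.94 and 1.68 CPM and that of microglial markers from 89 to 54.3 and 42.9 CPM. Their part in the result was not tested. The days also differ in the mice used, and the age at collection was not given per mouse.

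**Figure D4:**
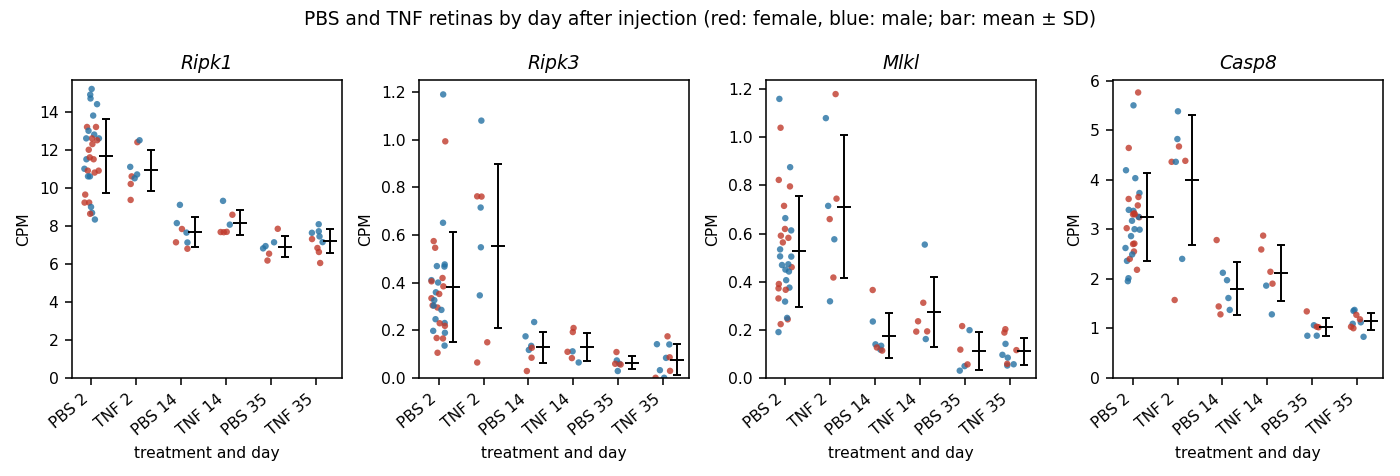
Level in CPM (vertical axis) of Ripk1, Ripk3, Mlkl and Casp8 in each WT batch 1 retina after PBS or TNF at days 2, 14 and 35, with mean ± SD. PBS and TNF retinas overlap at each day, and the PBS medians of Ripk3 descend from 0.334 to 0.0588 CPM.

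Sex taken over all treatments of the WT batch 1 retinas at day 2 gave no call among the 7 genes, beside 0.363% of all genes, with log2 differences from -0.013 for Cyld to 0.12 for Mlkl. At an unadjusted p under 0.05 there were 1948 genes.

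The remaining comparisons asked whether loss of SARM1 altered the response to IL1A+TNF. The Sarm1 message itself was 40.3 ± 7.36 CPM in the 12 Sarm1-/- retinas and 106 ± 13.3 CPM in the 97 WT retinas (SD), with no overlap (26 to 52.9 against 76.2 to 138 CPM). Which exons gave the remaining reads cannot be told from gene counts. In WT retinas of both batches, 6 of the 7 genes rose with IL1A+TNF, beside 55.2% of all genes called. In Sarm1-/- retinas 6 were called as well, 5 higher and Cyld lower, beside 43.9% of all genes. Fadd and Cyld lost their calls with mouse as a fixed block (adjusted p = 0.062 and 0.11) and in batch 2 alone (0.084 and 0.075), and the count ran from 4, without IL1A+TNF replicate 5, to 7, without IL1A+TNF replicate 1. The fold changes in Sarm1-/- retinas were 1.87 for Ripk1, 3.12 for Ripk3, 2.32 for Mlkl and 2.04 for Casp8, and 1.93, 3.37, 3.58 and 2.29 in WT retinas. The genotype by treatment interaction was called for 0 of the 7, beside 8.72% of all genes. Its log2 value was -0.049 for Ripk1 (95% interval -0.49 to 0.39), -0.11 for Ripk3 (-0.83 to 0.61), -0.63 for Mlkl (-1.29 to 0.037) and -0.16 for Casp8 (-0.62 to 0.29). Sarm1-/- and WT retinas gave 0 calls among the 7 after PBS, beside 0.0397% of all genes, and 0 after IL1A+TNF, beside 15.6% of all genes.

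The WT response was seen in both batches. In batch 2 alone Ripk3, Mlkl and Casp8 were called, 3 of 7 beside 20.7% of all genes, at 2.98-fold, 2.87-fold and 2.46-fold. Ripk1 was at 11.8, 10.6, 10.7, 11.5 and 15.2 CPM in the PBS retinas and ran from 16 through a median of 23 to 27.3 CPM after IL1A+TNF. The groups did not overlap, which was not counted over all genes, and the change was 1.77-fold (adjusted p = 0.055). In each of the 5 mice with both eyes the treated eye was the higher for Ripk1, Ripk3, Mlkl and Casp8.

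Behind the similar mean of the Sarm1-/- retinas lay a split between their mice that followed the sex given in the labels. This comparison was added after the values had been seen, and with 3 mice of each sex, sex cannot be told apart from any other difference between those mice. The 3 females had Ripk1 at 8.13, 10.9 and 13.4 CPM in the PBS eye and at 32.5, 37.4 and 36.9 CPM in the IL1A+TNF eye of the same mice. The 3 males had 12.5, 16.3 and 13.9 CPM in the PBS eye and 13.7, 14.9 and 14.4 CPM in the IL1A+TNF eye. The treated eye stood at 2.74-fold to 4-fold the PBS eye in the females and at 0.918-fold to 1.1-fold in the males, whose treated eyes stayed within the range of the 6 PBS eyes. Mlkl went from 0.383, 0.907 and 0.759 to 2.07, 2.73 and 2.97 CPM in females and from 0.552, 1.32 and 0.586 to 0.99, 0.982 and 1.01 CPM in males. Casp8 went from 3.49, 4.01 and 3.16 to 8.21, 13.1 and 14.4 CPM in females and from 4.83, 5.59 and 3.06 to 4.95, 5.91 and 5.47 CPM in males. The treated eyes of the sexes did not overlap for Ripk1, Ripk3, Mlkl or Casp8. The share of all genes without such overlap was not counted, so this only describes 3 against 3 eyes. Ripk3 went from 0.298, 0.722 and 0.353 to 1.63, 2.89 and 2.63 CPM in females and from 0.666, 0.798 and 0.378 to 0.869, 1.44 and 1.07 CPM in males, so that it was the higher in the treated eye of all 6 mice.

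**Figure D5:**
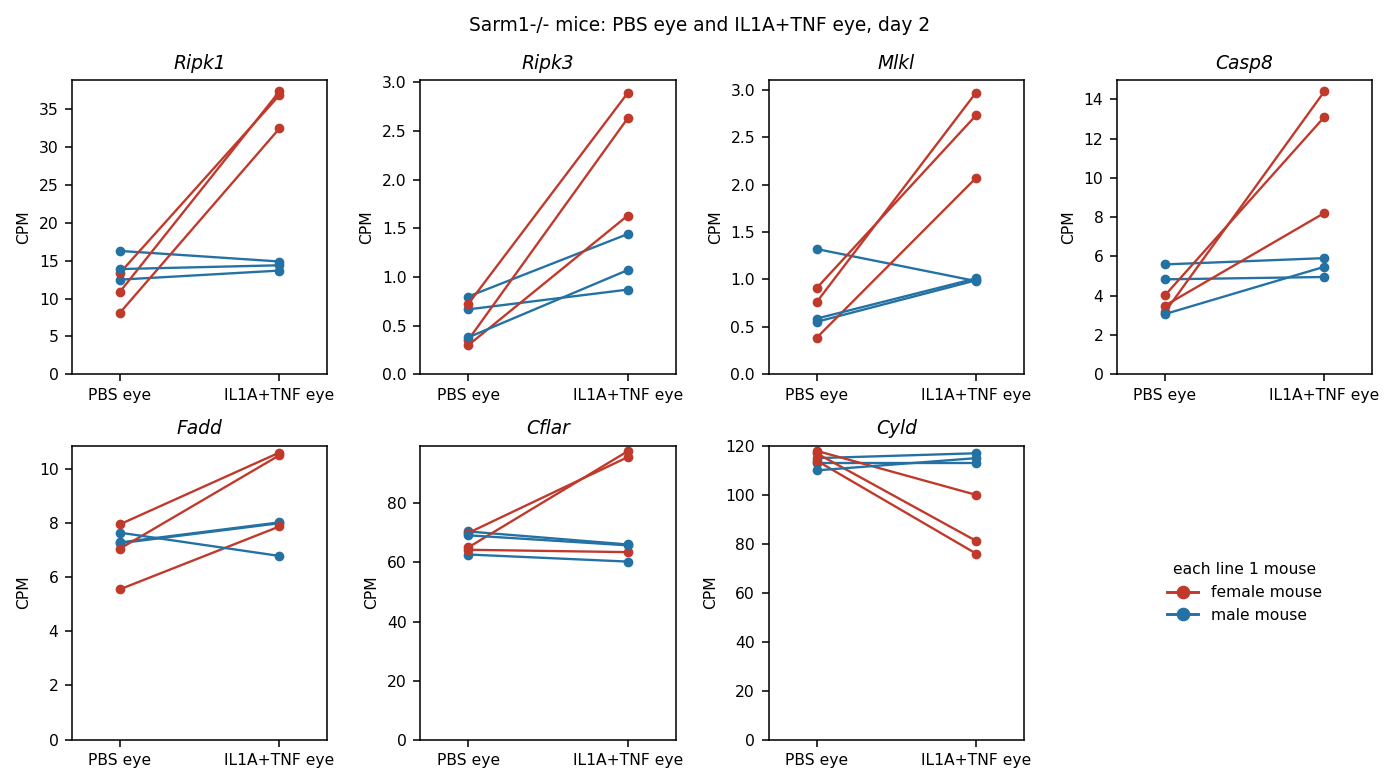
Level in CPM (vertical axis) of each gene in the PBS eye and the IL1A+TNF eye of the 6 Sarm1-/- mice, a line per mouse, females in red and males in blue. The female lines of Ripk1 rise from 8.13-13.4 to 32.5-37.4 CPM, and the male lines stay between 12.5 and 16.3 CPM.

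With the sexes as groups of their own, all 7 genes were called in Sarm1-/- females, 6 higher and Cyld lower, beside 52.5% of all genes called, 26.7% higher and 25.8% lower. Ripk1 rose 3.38-fold, Ripk3 5.32-fold, Mlkl 3.9-fold and Casp8 3.31-fold, and Cyld fell by 0.41 on the log2 scale. In Sarm1-/- males 0 were called, beside 0.111% of all genes, and 1 of the 7 had an unadjusted p under 0.05, with edgeR and DESeq2 calling 0. The male log2 difference of Ripk1 was 0.033 (95% interval -0.41 to 0.47) and that of Ripk3 was 0.88 (0.12 to 1.63, adjusted p = 0.62). The difference between the effects in females and males was called for all 7 genes, beside 34.1% of all genes. It was 1.72 ± 0.31 SE for Ripk1 on the log2 scale (adjusted p = 5.4e-06), 1.54 ± 0.53 for Mlkl (0.018), 1.53 ± 0.55 for Ripk3 (0.022), 1.42 ± 0.34 for Casp8 (6.4e-04), 0.47 ± 0.18 for Fadd (0.035), 0.44 ± 0.15 for Cflar (0.013) and -0.44 ± 0.091 for Cyld (6.4e-05). In WT retinas, with 9 females and 7 males given IL1A+TNF, the same difference was called for 0 of the 7, beside 0% of all genes. There it was 0.24 for Ripk1 (95% interval -0.094 to 0.58) and 0.048 for Mlkl (-0.54 to 0.64), and 2.37% of all genes had an unadjusted p under 0.05 by limma, with 0 called by edgeR and by DESeq2.

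The calls of the Sarm1-/- difference for Ripk1 and Cyld held in each of the 12 fits that left out a Sarm1-/- retina and with edgeR and DESeq2. Those of Ripk3 and Fadd held in 5 and 3 of the 12 and in neither edgeR nor DESeq2 (adjusted p from 0.07 to 0.084), those of Mlkl and Cflar in 10 and 8 of the 12, and that of Casp8 in 12. Of the Sarm1-/- PBS retinas, those of 2 males had sums of neutrophil markers above 100 CPM (105 and 102), as did 1 WT PBS retina (130). Without these 3 retinas the only male Sarm1-/- PBS retina left was replicate 6, so calls are not read from that fit. The Casp8 difference was then 0.87 on the log2 scale, against 1.42 with all retinas. Over edgeR, DESeq2 and this fit, the lowest difference was 0.87 for Ripk3 and 1.18 for Mlkl, against 1.53 and 1.54 in the main fit. For Ripk1, Fadd and Cflar the lowest was 1.68, 0.47 and 0.45, against 1.72, 0.47 and 0.44. Other markers differed with the split. After IL1A+TNF the ganglion cell sum ran from 89.1 to 295 CPM in the females and from 569 to 686 CPM in the males, the rod sum from 21404 to 28136 and from 32060 to 43069 CPM, and the neutrophil sum from 319 to 658 and from 102 to 230 CPM. The microglial sums overlapped, from 92.5 to 131 CPM in the females and from 128 to 152 CPM in the males. Their part in the result was not tested.

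Other pathway genes were counted by list, without a test between lists. In Sarm1-/- females, beside 26.7% of all genes higher and 25.8% lower, all 5 of the other RHIM proteins and sensors and 3 of 4 death ligands and receptors were higher. Of the receptor complex 4 of 6 were higher and 1 lower, and of the linear ubiquitin ligase and deubiquitinases 5 of 7 and 1. Of the kinases with their regulatory partners these were 6 of 10 and 1, and of the necrosome regulators 1 of 9 and 1. In Sarm1-/- males 0 genes were called in any of the lists, beside 0.111% of all genes. The difference between the sexes was called in either direction for 34.1% of all genes. In these lists it was called, higher in females, for 5 of 5, 2 of 4, 3 of 6, 3 of 7, 4 of 10 and 0 of 9 genes in that order. It was called lower for 1 gene each of the receptor complex, the ubiquitin list and the necrosome regulators. The female effect exceeded the male one by 2.88 ± 0.59 SE on the log2 scale for Zbp1 (adjusted p = 7.0e-05), by 1.31 ± 0.31 for Tnfrsf1a (adjusted p = 4.5e-04) and by 1.14 ± 0.24 for Rnf31 (adjusted p = 1.3e-04).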

How the data were processed

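Whole retinas were sequenced as poly(A) RNA, 150-base paired-end. The authors aligned reads to mm10 with STAR 2.7.9a and counted them per gene with featureCounts of Subread 2.0.1, and the deposited table holds raw counts, from 30014757 to 79064488 per retina. Groups followed the labels and 0 columns belonged to other samples. Counts were tested with limma 3.58.1 (voom, TMM from edgeR 4.0.16, R 4.3.3), with sex as a term, batch where both batches entered, and mouse as a random block. The days of PBS were tested by a moderated F without block. filterByExpr was run with a minimum count of 10, and p-values were Benjamini-Hochberg adjusted over all genes, with a threshold of 0.05. Intervals are 95% and not adjusted. The code was tested on simulated data. Alternatives used edgeR, DESeq2 1.42.0, other scaling, no filter, other terms and fewer retinas.

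The members and lists were chosen with earlier results of these data known. Named were the members, the first 4 tested genes of each role list (of one list, 2 are not reported here), Birc3, Tnfaip3 and Ikbke, chosen after their values were seen, and the 2 genes most alike to each member among those averaging at least 1 CPM. Both eyes were sequenced in 45 of 64 mice, which pairs them by animal. The median correlation of the eyes' deviations was 0.0827, and 19 mice had one above 0.1. Gene positions came from GENCODE M21, which matched 35533 of 37315 identifiers, and promoters from RefSeq.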

Additional observations from a re-analysis of the deposited data

Results flagged for a closer look

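In 77 combinations of a member and a group of 4 to 10 retinas, 7 held a retina far from the others by Dixon's criterion, which chance alone meets in about 1 in 20 groups. After IL1A at day 2, replicate 8 was the highest retina both for Ripk1, at 20.9 CPM with the next at 15.4 CPM, and for Mlkl, at 1.73 CPM with the next at 0.988 CPM. After IL1A+TNF in batch 1, replicate 2 was the highest for Cflar, at 84.6 CPM with the next at 73.5 CPM, and the lowest for Cyld, at 96.6 CPM with the next at 107 CPM. After PBS, replicate 5 of day 14 was the highest for Cyld, at 131 CPM with the next at 124 CPM. In WT PBS retinas of batch 2, replicate 5 was the highest for Ripk1, at 15.2 CPM with the next at 11.8 CPM, and replicate 2 the highest for Fadd, at 8.27 CPM with the next at 6.91 CPM.

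Of the tests of a difference between effects, the IL1A by TNF interaction passed for Ripk1, at 0.79 on the log2 scale (adjusted p = 0.015). The effect of IL1A+TNF in Sarm1-/- females exceeded that in Sarm1-/- males by 1.72 for Ripk1, 1.54 for Mlkl, 1.53 for Ripk3, 1.42 for Casp8, 0.47 for Fadd and 0.44 for Cflar on the log2 scale, and it was -0.44 for Cyld (adjusted p from 5.4e-06 to 0.035). That comparison was chosen after seeing the data.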

How the results depend on the processing

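Of 1608 values of the members under alternatives, 1511 kept their direction and side of the threshold, and of the 633 values that belong to called results 0 changed direction and 46 lost the call. With mouse as a fixed replicate block, which uses fewer mice, 1 member rather than 3 was called after IL1A (Ripk3 and Mlkl at adjusted p = 0.13 and 0.11), Fadd lost its call after IL1A+TNF, and Fadd and Cyld lost theirs in Sarm1-/- retinas, as they did in batch 2 alone. No other count of members moved by over 1.5 times under the block. In WT batch 2 alone, Ripk1 passed with edgeR and DESeq2 (adjusted p = 0.022 and 0.0075). The difference between Sarm1-/- females and males was called for 3 to 7 members when a Sarm1-/- retina was left out. An alternative chosen after seeing the data left out the 3 PBS retinas high in neutrophil markers. It kept only replicate 6 of the male Sarm1-/- PBS retinas, so its calls of this difference are not given.

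Direction changed only for differences near 0 that were not called, for causes that were not tested (log2 scale). With mouse as a fixed block these were Ripk1 after TNF at day 2 (0.057) and Fadd and Cyld after IL1A (-0.048 and 0.01). With edgeR they were the Ripk3 interactions of the cytokines (-0.01) and of genotype (0.0013) and Casp8 between genotypes after IL1A+TNF (0.012; DESeq2 5.1e-04) and between the sexes' effects in WT (0.036; DESeq2 0.043). Without the sex term they were the Casp8 interaction (0.001) and Ripk3 between genotypes after PBS (0.014). Among PBS retinas alone, sex gave -0.09 for Ripk1, -0.12 for Ripk3 and 0.0024 for Cyld. After TNF at later days, Cyld was -5.4e-04 with DESeq2 at day 14, and Cflar at day 35 was 7.3e-04 with DESeq2, 0.0022 with its size factors and 5.6e-04 with no replicate block. With no filter, Ripk3 and Fadd between genotypes after PBS were 0.031 and 0.012 and the genotype interaction of Cflar was -0.024. In batch 2 alone, Fadd between genotypes after PBS was 0.0022 and the genotype interactions of Ripk1 and Ripk3 were 0.098 and 0.11. Without the PBS retinas high in neutrophil markers, Ripk1 and Casp8 between genotypes after PBS were -0.078 and -0.23, the genotype interactions of Ripk1, Ripk3 and Casp8 were 0.14, 0.28 and 0.13, and Fadd in Sarm1-/- males was -0.02. With a retina left out, the ranges that crossed 0 were -0.0076 to 0.02 for Cyld after TNF at day 14, -0.0087 to 0.023 for Cflar and -0.0011 to 0.025 for Cyld at day 35, -0.048 to 0.034 for Ripk3 and -0.042 to 0.0062 for Fadd between genotypes after PBS, and -0.065 to 0.13 for Ripk1 in Sarm1-/- males.

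Depth limits Ripk3 and Mlkl most, which had at most 171 and 180 counts in any retina and as few as 0 and 1. The cages, litters and injection sessions of the mice were not given. Effects shared within them were not modelled, and the p-values do not account for them.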
